A study of Mus musculus with 10 samples.

Results

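The regions described here are places in the mouse embryonic stem (ES) cell genome where both TET2 antibody libraries and both FLAG-TET2 libraries had a peak, where neither Tet2 knockout library had one, and where at least 1 library of untagged parental cells had one with the FLAG resin. They passed the control for the TET2 antibody and failed the control for the FLAG resin. The peaks of 8 ChIP-seq lists on 21 chromosomes were merged into regions wherever they shared at least 1 bp. Of the 79350 merged regions, 3854 met the rule, or 4.86%. They made up 32.3% of the 11942 regions with a peak in all 4 target lists (wild type and FLAG-TET2), and 46.0% of the 8375 of those with no knockout peak. The rule applied to 7 lists gave 1672 regions without parental replicate 1, 5833 without wild type replicate 2 and 5970 without knockout replicate 2. These regions were chosen by the presence of a peak, which rests on its fold and q value, so those values are given as a description with no test.

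All groups were ES cells in a serum medium to which LIF, the GSK-3 inhibitor CHIR99021 and the MEK inhibitor PD0325901 had been added, and chromatin was fixed with disuccinimidyl glutarate followed by formaldehyde. FLAG-TET2 cells carry a 2x-FLAG tag on TET2 and were precipitated with FLAG M2 affinity gel. Tet2-/- cells are the knockout, and they were precipitated with a rabbit polyclonal antibody raised against the N-terminal part of TET2. Wild type denotes Tet2fl/fl cells, whose Tet2 alleles are floxed, precipitated with that same antibody. Parental denotes untagged Tet2fl/fl cells precipitated with the FLAG gel, and FLAG-TET2 cells are labelled Tet2fl/fl as well. Each group had 2 libraries and each library its own peak list, which held 63612 and 28258 peaks for FLAG-TET2, 2261 and 11702 for the knockout, 38546 and 18826 for wild type, and 36549 and 10132 for parental cells. The labels do not say whether the 2 libraries of a group came from separate cultures or clones, so their spread may be technical only, and the read depth behind each list is unknown. An input and an IgG library were not analysed here.

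TET2 belongs to a family of dioxygenases that oxidise methylated cytosine in DNA, a step toward removal of the methyl group. In ES cells it shares this work with TET1, and it is known to act at enhancers, while CpG islands, the CpG-rich stretches that cover most promoters of widely expressed genes, are kept largely free of methylation. The FLAG gel carries a monoclonal antibody against a short peptide tag, and peaks it gives in cells without the tag cannot come from tagged TET2.

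Promoters are shown first because most of the regions lay at one. The 4 promoters named first below have their start sites inside regions of the set and span from CpG-dense to CpG-poor. The start site of Pipox, a peroxisomal oxidase gene, lies in a region with a peak in all 4 target lists and no control list. Each is the 250 bases before the start site, written 5′ to 3′ in the direction of the gene, from RefSeq (GRCm38.p6). Capitals mark the CG dinucleotides.

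Tet2: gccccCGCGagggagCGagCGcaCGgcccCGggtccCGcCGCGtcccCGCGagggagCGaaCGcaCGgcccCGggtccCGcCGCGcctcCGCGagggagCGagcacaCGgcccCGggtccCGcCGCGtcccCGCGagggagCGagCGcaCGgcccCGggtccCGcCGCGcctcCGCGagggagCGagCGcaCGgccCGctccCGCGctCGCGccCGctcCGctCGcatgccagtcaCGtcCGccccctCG
Trp53: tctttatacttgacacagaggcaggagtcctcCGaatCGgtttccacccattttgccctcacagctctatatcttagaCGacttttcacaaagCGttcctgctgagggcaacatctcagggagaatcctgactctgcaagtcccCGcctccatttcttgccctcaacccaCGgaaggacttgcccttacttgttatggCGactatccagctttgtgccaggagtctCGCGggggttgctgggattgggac
Pou5f1: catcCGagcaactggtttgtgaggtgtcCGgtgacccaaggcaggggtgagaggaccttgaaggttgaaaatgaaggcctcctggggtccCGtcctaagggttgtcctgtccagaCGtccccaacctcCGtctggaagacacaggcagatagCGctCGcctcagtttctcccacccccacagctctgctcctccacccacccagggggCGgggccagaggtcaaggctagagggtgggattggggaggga
Nanog: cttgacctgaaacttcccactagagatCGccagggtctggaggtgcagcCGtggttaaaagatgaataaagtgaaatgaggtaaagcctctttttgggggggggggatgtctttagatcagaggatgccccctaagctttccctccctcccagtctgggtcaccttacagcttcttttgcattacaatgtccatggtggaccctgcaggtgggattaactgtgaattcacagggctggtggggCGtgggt
Pipox: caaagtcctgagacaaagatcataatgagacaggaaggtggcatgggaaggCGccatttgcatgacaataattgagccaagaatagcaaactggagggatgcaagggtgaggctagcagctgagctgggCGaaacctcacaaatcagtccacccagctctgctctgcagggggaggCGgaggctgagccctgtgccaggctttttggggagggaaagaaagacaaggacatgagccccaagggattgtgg

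The Tet2 stretch, chr3:133544391-133544640 on the minus strand, holds 51 CG dinucleotides in the 250 bases. That of Trp53, the gene for the tumour suppressor p53, is chr11:69580109-69580358 on the plus strand and holds 9. The Trp53 region begins at 69580279, so only the last part of this stretch lies inside it. The stretch of Pou5f1, which encodes the pluripotency factor OCT4, is chr17:35505782-35506031 on the plus strand with 8, and that of Nanog, another pluripotency factor, is chr6:122707239-122707488 on the plus strand with 3. The Pipox stretch, chr11:77893873-77894122 on the minus strand, also holds 3. These promoters are single examples and do not give the spread of CpG density over the set. Nor does Pipox stand for the regions without a control peak.

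The parental peak came mostly from the longer parental list. Parental replicate 1 alone had the peak at 2173 regions (56.4%), both parental lists had one at 1668 (43.3%), and parental replicate 2 alone at 13 (0.337%). Regions of the set were wide. Their median width was 894 bp (quartiles 646 and 1207, range 218 to 4161 bp), against 434 bp for the 4521 regions with all 4 target peaks and no control peak (called common regions below), 532 bp for the 876 with a knockout but no parental peak, 1000 bp for the 2691 with both kinds of control peak, and 243 bp for all merged regions. Regions with a peak in both parental lists had a median width of 1080 bp, and those with a peak in parental replicate 1 alone 777 bp. A region spans all of its merged peaks, and the rule sets which lists must have one. These widths thus depend in part on the rule.

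Most regions of the set lay at the end of a protein-coding gene. Of the 3854, 2501 lay no more than 1 kb from the start or the finish of a gene span, called a gene end below (64.9%, exact 95% interval 63.4 to 66.4). Another 724 (18.8%) lay elsewhere inside a gene span and 629 (16.3%) outside genes. Over all merged regions the gene-end share was 22.3%. It was 10.0% in common regions (453 of 4521), 18.3% in regions with a knockout but no parental peak (160 of 876) and 73.7% in regions with both control peaks (1984 of 2691). Two-sided Fisher's exact tests over regions, adjusted by Benjamini-Hochberg over the 3 comparisons, gave an odds ratio of 16.6 (95% interval 14.7 to 18.7) against common regions, with a p below what double precision holds. Against regions with a knockout but no parental peak the odds ratio was 8.27 (6.87 to 10.0, adjusted p = 6.9e-144). Regions are not replicates, so these p-values describe the 8 lists and not the spread between libraries. Width moved with the share, and its part in the result was tested only in so far as 200 bp windows around the summits, in place of whole peaks, gave odds ratios of 8.93 and 4.25 for the same pair of comparisons. Without parental replicate 1 they were 9.53 and 3.42, and without knockout replicate 2 or FLAG-TET2 replicate 2 the second was 3.68 or 4.27. When each list was shortened to its 2259 leading peaks, 10 regions of the set were left, and both odds ratios were under 1 (0.866 and 0.471, Fisher's exact p = 1.0 each).

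**Figure D1:**
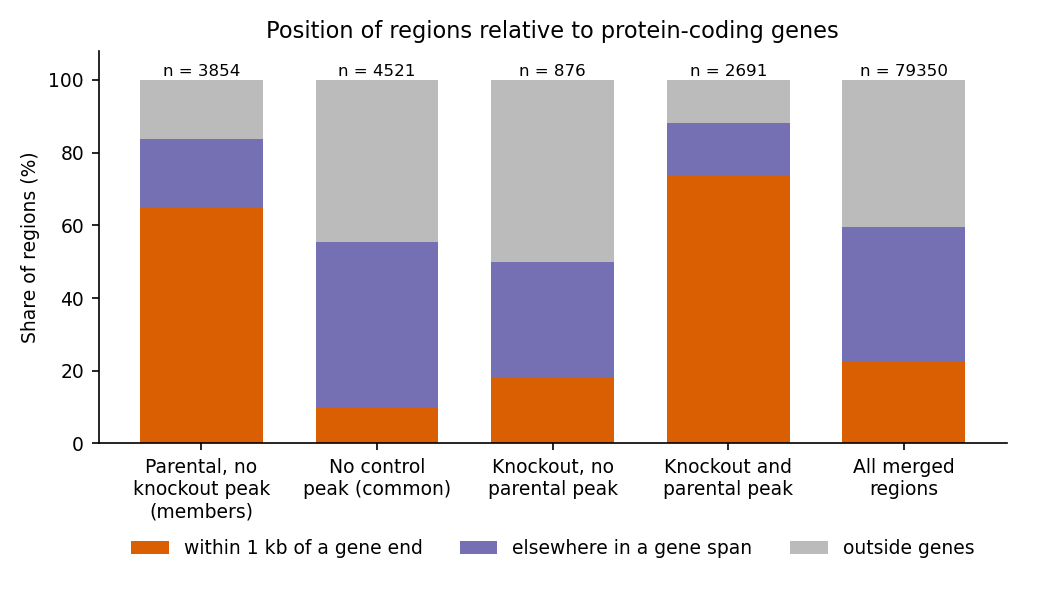
Share of regions (%) within 1 kb of a protein-coding gene end, elsewhere in a gene span and outside genes, for the regions of the set (parental but no knockout peak) and 4 other groups, with the number of regions above each bar. The set (64.9% at a gene end) stands near the regions with both control peaks (73.7%) and far from the common regions (10.0%).

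Against regions that had a knockout peak as well as a parental one, the gene-end share was lower, with a difference of -8.83 percentage points (odds ratio 0.659, 0.590 to 0.735, Fisher's exact adjusted p = 2.8e-14). Among the 1668 regions with a peak in both parental lists the share was 76.7% (74.6 to 78.7), and among the 2173 with a peak in parental replicate 1 alone it was 55.9% (53.8 to 58.0). Regions with both control peaks had 80.9% (1055 of 1304) when they too were limited to a peak in both parental lists. With both sides limited in this way the odds ratio was 0.779 (0.648 to 0.934, Fisher's exact p = 0.006, unadjusted).

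Each list ranks its own peaks by the authors' −log10 q, and a percentile of 100 is the strongest peak of that list. In all 4 target lists the regions away from genes ranked above those at gene ends. The median percentile at gene ends, in gene bodies and outside genes was 78.2, 85.9 and 89.9 in FLAG-TET2 replicate 1, and 53.5, 69.7 and 74.9 in FLAG-TET2 replicate 2. The corresponding medians were 66.8, 80.7 and 88.3 in wild type replicate 1 and 43.3, 61.4 and 71.2 in wild type replicate 2. Low ranks at gene ends were not particular to the set. In FLAG-TET2 replicate 1 common regions had medians of 73.7, 86.2 and 86.4, and regions with both control peaks 76.5, 80.5 and 89.1. Regions with a knockout but no parental peak had 66.8, 85.0 and 87.7 in that list. Medians of the set in parental replicate 1, which had a peak at 3841 of its regions, were 61.3, 44.6 and 28.8, falling away from gene ends. In parental replicate 2, with a peak at 1681, they were 30.8, 40.1 and 45.4. These 2 series come from different regions. Over the 1668 regions with a peak in both parental lists the medians were 75.4, 81.1 and 82.3 in parental replicate 1 and 30.8, 40.0 and 46.1 in parental replicate 2, so on the same regions both parental lists ranked gene ends lowest, as the 4 target lists did.

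**Figure D2:**
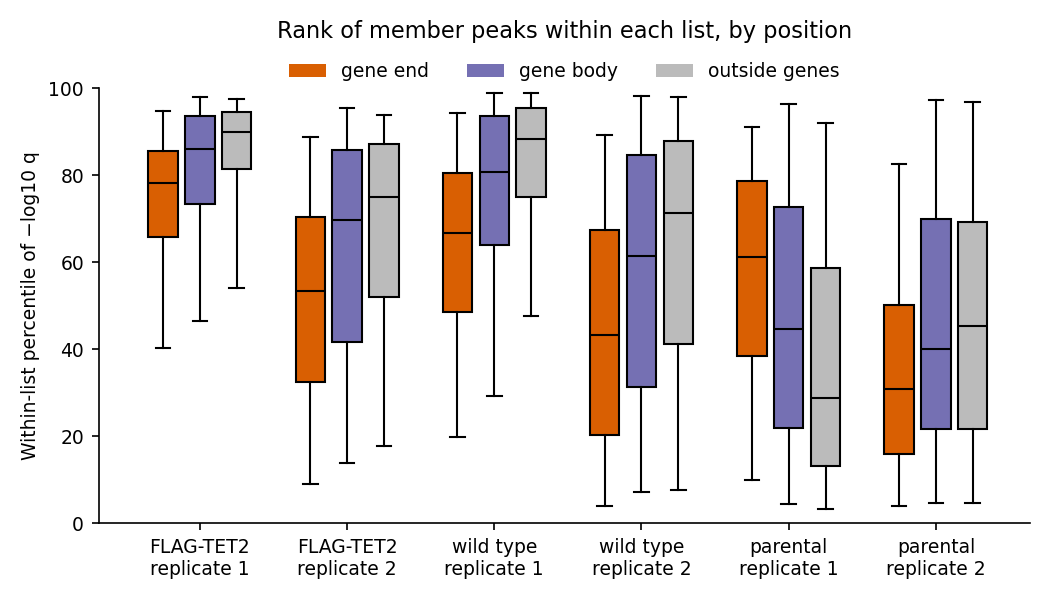
Within-list percentile of −log10 q for the strongest peak of each region of the set, by library and position; boxes span the quartiles with a line at the median, and whiskers reach the 5th and 95th percentiles. The medians climb from gene ends to regions outside genes in both FLAG-TET2 and both wild-type lists (78.2 to 89.9 in FLAG-TET2 replicate 1), and fall in parental replicate 1 (61.3 to 28.8), whose 3841 regions are not those of parental replicate 2 (1681).

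Split into 4 equal groups by rank within a list, the strongest regions were the least often at a gene end in every target list. The gene-end share of the top group was 36.9% and 39.4% in FLAG-TET2 replicates 1 and 2, and 37.2% and 44.8% in wild type replicates 1 and 2. The bottom group had 77.4%, 76.1%, 81.2% and 75.3% in the same lists. In parental replicate 1 the top group had 74.3% and the bottom group 42.1%. In parental replicate 2, over fewer regions, the shares were 64.0% at the top and 79.6% at the bottom. The authors' folds ran the same way as the ranks, with a median of 14.1 outside genes and 9.88 at gene ends in FLAG-TET2 replicate 1, 11.6 and 7.89 in wild type replicate 1, and 5.87 and 7.71 in parental replicate 1. In the second replicates they were 8.32 and 6.46 in FLAG-TET2 and 7.30 and 5.94 in wild type. Parental replicate 2, over fewer regions, had 6.88 and 6.15, the order of the target lists.

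Annotated start sites of coding transcripts, where transcription begins, lay within 1 kb of 2215 of the 3764 regions outside chromosome 18 (58.8%, 57.3 to 60.4). The share was 7.11% in common regions, 16.8% in regions with a knockout but no parental peak, 66.0% in those with both and 18.8% in all merged regions. Of the 2215, 1651 held a single start site and 564 several. At 289 (13.05%) the start sites belonged to genes on opposite strands. Among common regions with a start site the share with genes on opposite strands was 6.45% (20 of 310), and among regions with both control peaks 11.3%. It was 2.80% (4 of 143) among regions with a knockout but no parental peak. No such share over all merged regions is given. A wider region can reach more start sites, and median widths were 894 bp in the set and 434 bp in common regions. The part of width in these shares was not tested.

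Promoters near these regions were rich in CpG as a group. Over the 300 bases from 250 before to 50 after the start, the ratio of observed to expected CG dinucleotides had a median of 0.833 (quartiles 0.693 and 0.953) at the 2882 start sites of 2437 genes near a region of the set. It was 0.672 near common regions, 0.868 near regions with both control peaks, 0.198 at start sites with no merged region and 0.567 over all 21263 start sites. A ratio of at least 0.6 was held by 85.5% of the promoters of the set, 60.1% of those of common regions and 47.7% of all. Near any merged region the median ratio was 0.775, and 75.1% of promoters held at least 0.6. Near regions with both control peaks 89.2% did. In the promoters printed above the ratio was 1.17 for Tet2, 0.494 for Trp53, 0.374 for Pou5f1, 0.192 for Nanog and 0.139 for Pipox. The median GC share was 63.8%, against 60.7% near common regions and 56.3% over all start sites. It was 62.0% near any merged region and 64.3% near regions with both control peaks.

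Short motifs were counted on both strands of the same 300 bases, where a match says only that the letters are present. GGGCGG, the GC box bound by SP and KLF factors, was found in 73.3% of promoters of the set, 65.1% of those of common regions and 46.2% of all promoters. CCGGAA, the core of ETS sites, was in 33.8%, 22.5% and 18.7% of the same groups. The NRF1 palindrome of 10 bases was in 2.08%, 1.61% and 1.33%, and in 2.15% of promoters near any merged region and 3.30% of those near regions with both control peaks. CACGTG, the E-box, was in 10.1%, 6.70% and 7.84%, and in 10.6% near any merged region and 16.6% near regions with both control peaks. For GGGCGG and CCGGAA the shares near any merged region were 67.1% and 27.8%. Near regions with both control peaks they were 71.0% and 32.2%, close to those of the set. TATAAA, the TATA box, went the other way, with 4.96%, 7.24% and 12.6%. It was in 6.48% near any merged region and 5.97% near regions with both control peaks. Near regions with a knockout but no parental peak it was in 3.55%. CCAAT, bound by NF-Y, was at 34.7%, 35.9% and 38.2%. None of the 6 motifs contains another, though matches may share end letters.

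Peak summits at start sites stood in a different place in each kind of library. At the 1651 regions with a single start site, the median summit lay 109 and 106 bp downstream of it in FLAG-TET2 replicates 1 and 2. In both wild-type lists it lay 15 bp upstream (medians of -15 and -15 bp). In parental replicates 1 and 2 it lay 181.5 bp (n = 1644) and 184 bp (n = 847) downstream. Replicates of a group differed by 3 bp at most, though the parental medians come from different regions. The smallest gap between groups was that of FLAG-TET2 and parental lists. FLAG-TET2 stood between the other groups.

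Expressed as means of the 2 medians, FLAG-TET2 summits (107.5 bp) were 122.5 bp further downstream than wild-type summits (-15.0 bp). FLAG-TET2 and parental summits (182.75 bp) differed by -75.25 bp. Wild-type and parental summits differed by -197.75 bp. Without parental replicate 1 the FLAG-TET2 minus parental difference was -39.5 bp. Over regions with a peak in both parental lists it was -45.25 bp. With 2 libraries against 2 the two-sided exact permutation test can give no p below 0.333, and it gave p = 0.333 for each of the 3 differences, so none can pass a threshold of 0.05 in this test. The share of summits downstream of the start site was 69.3% and 69.1% in FLAG-TET2, 45.9% and 45.1% in wild type, and 81.9% and 81.9% in parental lists.

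**Figure D3:**
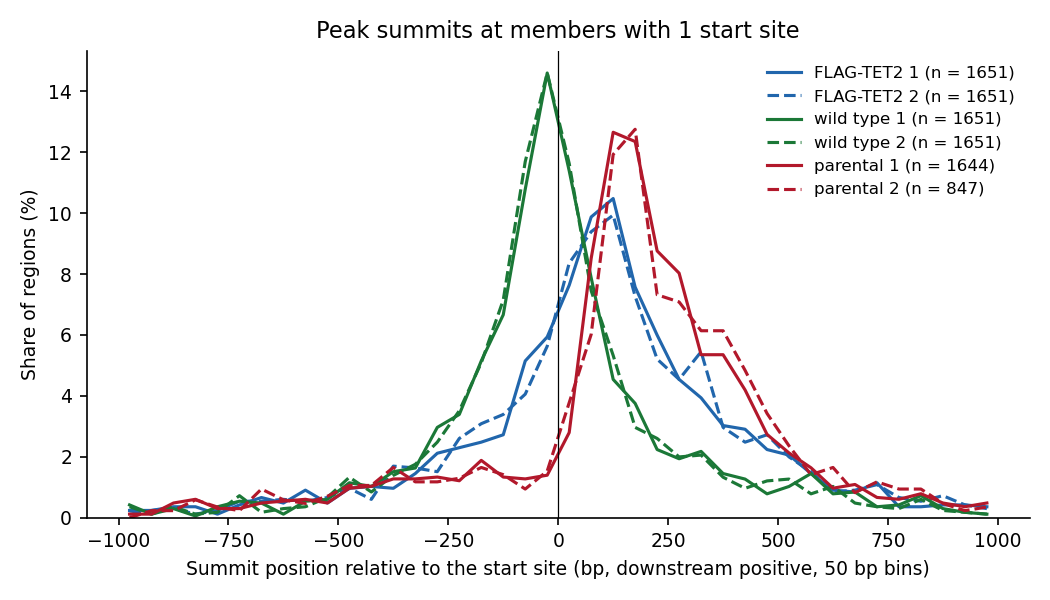
Share of regions (%) with the summit of their strongest peak in each 50 bp bin around the start site, for the regions of the set with 1 start site, by library; solid lines are replicate 1 and dashed lines replicate 2. Wild-type summits gather just upstream of the start site and parental summits beyond 100 bp downstream. FLAG-TET2 summits are most frequent in the bins that begin 50 and 100 bp downstream.

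Regions with both control peaks gave the same places. There the medians were 110 and 114.5 bp in FLAG-TET2 lists, -35 (n = 321) and -19 bp (n = 1321) in knockout lists, -21.5 and -24 bp in wild-type lists, and 175 and 190 bp in parental lists. In these regions the medians of the TET2 antibody lay near the start site, in cells with and without TET2. Those of the FLAG gel lay downstream. At common regions with 1 start site (n = 259) the medians were -56 and -69 bp in FLAG-TET2 lists and -82 and -74 bp in wild-type lists, all upstream of it. At regions with a knockout but no parental peak (n = 125) the FLAG-TET2 medians were -53 and -38 bp. The wild-type medians there were -66 and -75 bp. FLAG-TET2 medians lay downstream only in the groups of regions with a parental peak.

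Within a region, FLAG-TET2 and wild-type summits coincided most closely away from genes. The median distance between the summits of FLAG-TET2 replicate 1 and wild type replicate 1 was 107 bp at gene ends, 45 bp in gene bodies and 29 bp outside genes. For replicate 2 it was 115, 52 and 34 bp. The distance between the 2 FLAG-TET2 lists was 76, 37 and 27 bp and between the 2 wild-type lists 47, 30.5 and 26 bp, so outside genes the distance between reagents (29 and 34 bp) was close to that between replicates. At common regions the median was 25 bp between FLAG-TET2 and wild type replicates 1. FLAG-TET2 and parental replicates 1 had their summits 136 bp apart at gene ends, 112 bp in gene bodies and 124 bp outside genes, and their peaks overlapped directly at 99.8% of regions. For replicates 2 the distances were 121, 59 and 51 bp, with overlap at 95.1%. Over the 1668 regions with a peak in both parental lists the distances were 123, 66 and 59 bp for replicates 1 and 120.5, 61 and 52.5 bp for replicates 2. Wild type and parental summits were 235, 167 and 151 bp apart in replicates 1 and 233, 167 and 173 bp apart in replicates 2, with direct overlap of the peaks at 95.3% and 72.9% of regions.

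The FLAG-TET2 summit of replicate 1 was nearer to the wild-type than to the parental summit at 56.4% of the 3841 regions with all 3 peaks. That share was 50.8% at gene ends, 61.8% in gene bodies and 72.7% outside genes. In replicate 2 the wild-type summit was the nearer one at 43.5% of 1681 regions, with 44.1% at gene ends, 39.2% in gene bodies and 46.4% outside genes. The replicates cover different regions here. Over the 1668 regions with a peak in both parental lists the shares were 43.2% in replicate 1 and 43.5% in replicate 2, with 42.2% and 44.0% at gene ends, 43.2% and 39.2% in gene bodies, and 52.9% and 47.1% outside genes.

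Single regions showed both extremes. The leading region of the set by mean rank in the target lists (98.9) lay at chr3:34760932-34761662, 108.5 kb from Sox2, its nearest protein-coding gene, which encodes a core pluripotency factor. Its folds were 44.3 and 28.7 in FLAG-TET2, 22.7 and 18.2 in wild type, and 4.23 in parental replicate 1, with no peak in parental replicate 2. The parental peak stood at percentile 4.13 of its list and the target peaks at percentiles 97.7 to 99.7. It is in the set through 1 weak parental peak.

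Of the 10 leading regions, 7 had a parental replicate 1 peak alone, at percentiles from 4.13 to 35.6. Besides Sox2 the 10 lay in or nearest to LOC115489489, Aven, Ccdc88c, Fblim1, A930007A09Rik, Gjc1, Ccdc138, Gm21992 and Plpp3, and only Gm21992 was at a start site. Aven, an apoptosis inhibitor gene, had FLAG-TET2 folds of 34.5 and 27.3, with 31.7 and 17.7 in wild type and 7.55 in parental replicate 2, the parental list that alone had a peak there. Plpp3, a lipid phosphatase gene, had an intragenic region at chr4:105223896-105224364 whose FLAG-TET2 folds were 34.1 and 19.3, with 33.3 and 20.3 in wild type and 5.81 in parental replicate 1. LOC115489489 stood apart from these, with folds that were high in every list, at 47.8 and 26.8 for FLAG-TET2, 26.3 and 14.2 for wild type, and 35.4 and 23.6 for parental cells.

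The largest gap between FLAG-TET2 and parental rank fell on regions in the bodies of Aldh4a1, Bmp7, Tdh and Elovl6 and on the distal Sox2 region. Bmp7 encodes a bone morphogenetic protein, and its region at chr2:172871066-172872397 had FLAG-TET2 folds of 26.4 and 17.9, with 27.5 and 17.3 in wild type and 3.48 in parental replicate 1. Tdh, which encodes a threonine dehydrogenase that mouse ES cells depend on, had FLAG-TET2 folds of 23.3 and 15.5, with 15.8 and 11.01 in wild type and 3.71 in parental replicate 1. In none of these 5 regions did parental replicate 2 have a peak.

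At the other extreme were regions where the parental peak was among the strongest of its list. The 5 leading regions by parental rank lay nearest to Smim17, Scrt1, Ccnc, Camta1 and Cacng2. Near Smim17, at chr7:6409941-6410729, 4.47 kb from the gene, folds were 101.2 and 74.7 in FLAG-TET2, 10.3 and 7.44 in wild type, and 97.5 and 78.6 in parental lists. At the end of Scrt1, which encodes a zinc-finger repressor of the nervous system, they were 99.7 and 72.2 in FLAG-TET2, 9.98 and 6.71 in wild type, and 96.7 and 77.6 in parental lists. These 5 regions held percentiles of at least 99.91 in both FLAG-TET2 lists, while the wild-type percentiles ran from 12.2 (Cacng2, replicate 2) to 79.3 (Smim17, replicate 1).

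**Figure D4:**
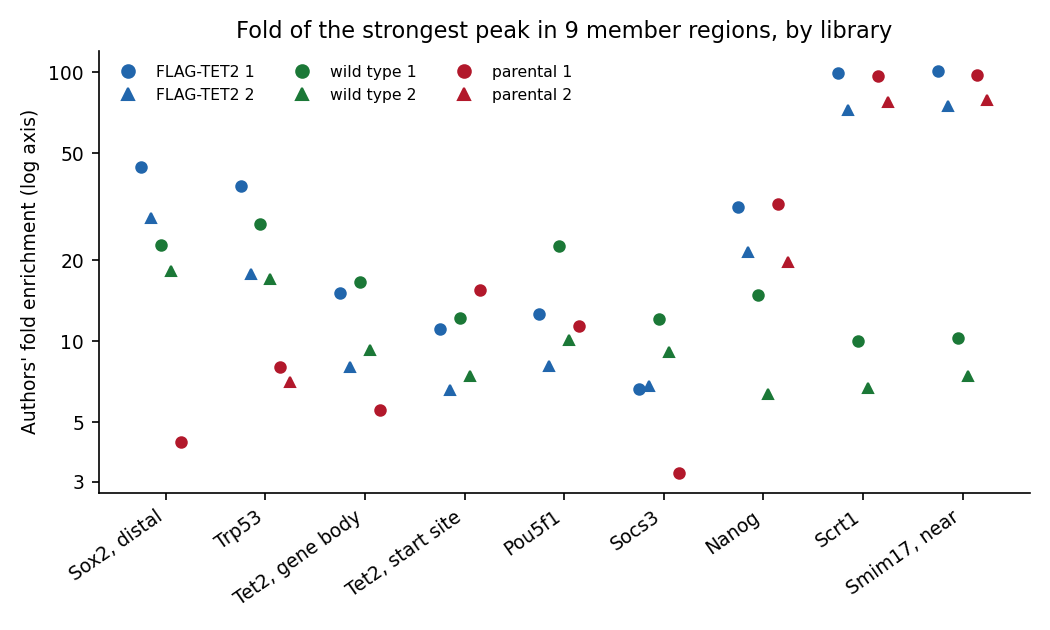
The authors' fold enrichment (log axis) of the strongest peak in 9 regions of the set, by library; circles are replicate 1 and triangles replicate 2, and a missing parental symbol is a list with no peak. Each fold is relative to its own list's control track. Parental folds are low beside the distal Sox2 region (4.23) and close to the FLAG-TET2 folds at Nanog, Scrt1 and Smim17 (97.5 and 78.6 at Smim17).

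Genes were then read from the side of the annotation. Over all 21887 protein-coding genes, 2953 (13.5%) had a region of the set within 1 kb of an end, and of the 13254 with any merged region there it was 22.3%. The counts for 19 gene lists, 410 of whose 411 symbols matched the annotation, are read against these shares. The lists and the set were chosen with results of these data known, so the counts describe and test nothing.

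Core pluripotency genes had the highest share of the 19 lists, with an interval that overlaps those of the splicing and naive-state lists. Of 22 core pluripotency genes 13 (59.1%, 36.4 to 79.3) had a region of the set at an end, 5 had a region with both control peaks and 3 a common region. They included Dppa2, Jarid2, Lin28a, Myc, Nanog, Pou5f1, Rest, Sall1, Sall4, Sox2, Tcf7l1 and Zfp281. Of 23 naive-state genes, which mark the ground state that the inhibitors maintain, 11 did (47.8%, 26.8 to 69.4), namely Cdh1, Dppa5a, Fgf4, Jak1, Klf5, Nanog, Socs3, Stat3, Tdgf1, Tfcp2l1 and Zfp42. Nanog counts in both lists. As nearest gene within 50 kb, 16 of 22 and 17 of 23 had a region of the set, against 14.9% of all genes. Over all 21887 protein-coding genes, 2327 had a region with both control peaks at an end and 532 a common region.

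At Pou5f1 (chr17:35505645-35506799, across the start site) the folds were 12.7 and 8.08 in FLAG-TET2, 22.7 and 10.1 in wild type and 11.4 in parental replicate 1. At Nanog (chr6:122706476-122708746, across the start site) they were 31.6 and 21.5 in FLAG-TET2 libraries, 14.8 and 6.35 in wild type, and 32.5 and 19.6 in parental lists. Nanog thus ranked high in both parental lists (percentiles 95.7 and 84.9), Pou5f1 in 1 of them (83.3). A second Sox2 region, 0.706 kb from the gene at chr3:34653167-34654394, had FLAG-TET2 folds of 26.3 and 14.6, with 14.3 and 9.88 in wild type and 6.97 in parental replicate 1.

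Members of the LIF and FGF pathways were among the naive-state genes. Fgf4, the autocrine growth factor of ES cells, had FLAG-TET2 folds of 19.7 and 11.99, with 13.8 and 9.14 in wild type and 9.27 in parental replicate 1. Socs3, the feedback inhibitor of LIF signalling, had 6.61 and 6.80 in FLAG-TET2, 12.1 and 9.12 in wild type and 3.24 in parental replicate 1, where the peak stood at percentile 3.31 of its list. Zfp42, which encodes REX1, had 11.6 and 11.002 in FLAG-TET2, 11.6 and 9.05 in wild type, and 7.95 and 5.50 in parental lists. Stat3, the transcription factor that LIF activates, and Klf5, a Krüppel-like pluripotency factor, were chosen after their values were seen. Stat3 had a peak in parental replicate 1 alone (fold 9.66) and Klf5 in both (11.4 and 6.94).

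Genes of RNA splicing and of the cytoplasmic ribosome also had high shares. Of 27 splicing genes 15 (55.6%, 35.3 to 74.5) had a region of the set at an end, among them the U2 particle genes Sf3b1 and Sf3b3, the SR protein genes Srsf3 and Srsf7, and Hnrnpu, Hnrnpk and Tra2b. The regions credited to Sf3b3, Hnrnpu and Hnrnpk are shared with Cog4, Cox20 and Rmi1, which the annotation gives as their nearest genes. At Tra2b, a splicing activator, folds were 19.4 and 11.4 in FLAG-TET2, 9.98 and 7.19 in wild type, and 12.97 and 8.82 in parental lists. Of 30 ribosomal protein genes 13 (43.3%, 25.5 to 62.6) had one, and Rps19 had FLAG-TET2 folds of 8.73 and 4.57, with 5.46 and 4.56 in wild type, and 14.7 and 10.8 in parental lists. A region with both control peaks stood at 8 of the splicing and 10 of the ribosomal protein genes, against 2327 of all 21887 protein-coding genes. These lists were thus high in that group of regions too.

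DNA repair genes had a share of 40.7% (11 of 27, 22.4 to 61.2). Trp53 was the strongest of all listed genes by mean target rank (97.9). At chr11:69580279-69583044 its folds were 37.8 and 17.8 in FLAG-TET2, 27.2 and 17.1 in wild type, and 8.02 and 7.02 in parental lists. The other repair genes included the mismatch repair gene Msh6 and the checkpoint kinase genes Atm and Chek1. Cell-cycle genes (9 of 30) and common housekeeping genes (6 of 20) each had 30.0%, mitochondrial ribosome genes 27.3% (6 of 22), proteasome genes 24.1% (7 of 29) and Trithorax and H3K4 methylation genes 23.5% (4 of 17). Over genes with any merged region at an end, of which 22.3% had a region of the set, the shares were 30.0% for cell-cycle, 33.3% for housekeeping, 27.3% for mitochondrial ribosome and 25% for both proteasome and Trithorax genes.

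**Figure D5:**
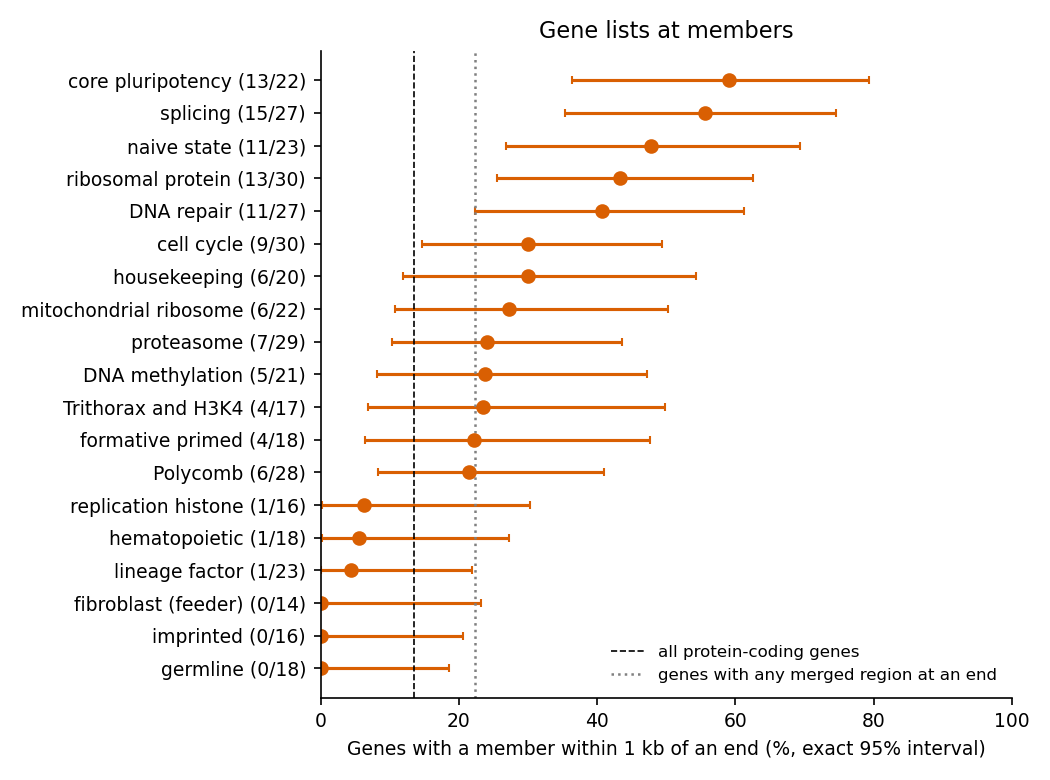
Share of the genes of each list (%) with a region of the set within 1 kb of an end, with exact 95% intervals; the numbers in brackets are genes with such a region over genes matched. The dashed line marks all protein-coding genes (13.5%) and the dotted line genes with any merged region at an end (22.3%), and core pluripotency, splicing and naive-state genes stand furthest to the right.

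The 6 lists with the lowest shares had at most 1 gene each. Of 23 lineage factors 1 had a region of the set at an end, of 18 hematopoietic genes 1 (Hhex), of 16 replication-dependent histone genes 1 (H4c14), and of 18 germline, 16 imprinted and 14 fibroblast genes 0. The exact intervals of all 6 contain the 13.5% over all genes, and a count of 0 of 18 has one up to 18.5%. Any merged region was present at an end of 12 of the 23 lineage factors and 6 of the 14 fibroblast genes. Of 18 formative and primed genes 4 had a region of the set at an end (Etv4, Nodal, Spry2 and Zic2, 22.2%). The exact interval, 6.41 to 47.6, also contains the 13.5% over all genes. Of the 15 with any merged region at an end the share was 26.7%, against 22.3% of all genes with one.

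Of 21 genes of DNA methylation and its removal 5 had a region of the set at an end (23.8%, exact interval 8.22 to 47.2, against 13.5% of all genes), namely Tet1, Tet2, Mbd2, Mbd4 and Ogt. Of the 17 with any merged region at an end this was 29.4%, against 22.3% of all genes with one. At Tet1 folds were 7.16 and 4.24 in FLAG-TET2, 6.89 and 6.17 in wild type, and 7.07 and 5.15 in parental lists. Ogt, the X-linked gene of the O-GlcNAc transferase that binds TET proteins, had 7.98 and 6.90 in FLAG-TET2, 5.18 and 5.25 in wild type and 6.96 in parental replicate 1. Of 28 Polycomb genes, all with a merged region at an end, 6 had one (21.4%, 8.30 to 41.0, against the same 22.3%), which were Cbx6, Eed, Jarid2, Pcgf2, Pcgf3 and Phf1. The region credited to Phf1 is shared with Cuta, that credited to Pcgf2 with Psmb3 and that credited to Cbx6 with Npcd, since these genes lie side by side.

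The Tet2 gene itself held 2 regions of the set. The first, in the gene body at chr3:133533998-133534475, had FLAG-TET2 folds of 15.2 and 8.02, with 16.6 and 9.24 in wild type and 5.53 in parental replicate 1. The second, at chr3:133543511-133545212, spans the start site at 133544390 and the CpG-dense promoter printed above. Its folds were 11.1 and 6.60 in FLAG-TET2, 12.2 and 7.39 in wild type and 15.4 in parental replicate 1. The parental peak was at percentile 35.6 of its list in the gene body and 89.6 at the start site. Neither knockout list had a peak at either place, and parental replicate 2 had none. Tet2 is itself the gene altered in the knockout cells. The part of that alteration in the missing knockout peaks was not tested. Further into the gene, the region at chr3:133524447-133525279 was kept out of the set because it had a knockout replicate 2 peak (fold 8.08). Its folds were 20.2 and 12.4 in FLAG-TET2, 14.1 and 8.002 in wild type and 5.98 in parental replicate 1.

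Some genes held several regions. Gse1, on chromosome 8, had 5 in or within 1 kb of its span of 352.883 kb. Sntg1, Septin1, Cacna1a and Fbxo36 had 4 each. Spans differed from 20.277 kb for Septin1 to 941.919 kb for Sntg1, and the number was not scaled by length.

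The rule cuts through a range of weak peaks. The lowest deciding parental −log10 q was 2.34, in the regions at Sdhc, Tesk2 and Dennd2a, each with a parental replicate 1 fold of 3.15. The median was 10.7, and 45 regions (1.17%) lay under 3. On the other side of the knockout criterion, the 2691 regions with both control peaks had a lowest deciding knockout −log10 q of 2.20, and 74 of them (2.75%) lay under 3. Knockout replicate 2, whose list is the longer one, kept out 2117 of the 2691 alone. Another 2512 regions had a parental and no knockout peak but missed 1 target list, which was wild type replicate 2 for 1979, FLAG-TET2 replicate 2 for 478, wild type replicate 1 for 50 and FLAG-TET2 replicate 1 for 5.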

How the data were processed

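TET2 and FLAG ChIP-seq peak lists of 8 mouse ES cell libraries, 2 in each of 4 groups, were used. Bowtie2, DESeq2, DiffBind, MACS2, Trimmomatic and the build mm10 are listed, per the submitters' processing notes, without versions or roles. The authors called peaks in each library separately, since each deposited list holds 1 library, and its deposited peak names contain IgG, rmDUP, rmChrM and q10. The deposited lists give each peak a score, a fold (a linear ratio over the control track), −log10 p and −log10 q values and a summit offset. The score is the −log10 q on a larger scale, truncated to an integer. Depth is unknown, so a missing peak may reflect depth, and no count test was possible.

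Peaks on 21 chromosomes were kept, which left out 2 to 34 peaks a list, and merged where they shared at least 1 bp. A region counted as present in a list with any peak inside it, and its value was that of its strongest peak. Percentiles rank −log10 q within a list. Positions came from 21887 protein-coding genes, and promoters and start sites from 21263 coding start sites, both RefSeq GRCm38.p6. Start sites on chromosome 18 were not used here, and its regions were left out of naming but not of counts. Shares carry exact 95% (Clopper-Pearson) intervals over regions. The tests were two-sided Fisher's exact tests and exact permutation tests of the summit medians. The summit tests were added after the data were seen, and scripts were tested on simulated data.

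Regions were named by rule. The rule took 10 leading by mean target percentile, 5 by parental percentile, 5 by FLAG-TET2 minus parental percentile, up to 4 per gene list, the 5 genes with most regions, those over Tet2 and those nearest the threshold. Stat3 and Klf5 were chosen after their values were seen, and list genes given by name alone are among those counted. Some listed genes are not reported here. The regions, gene lists and rules were chosen with earlier results of these data known. Same-numbered libraries share only a number, and the fit that blocks by it is an alternative. Alternatives were a stricter threshold, summit windows, equal-length lists, other gene-end distances and leaving out each list. Python 3.11.15, NumPy 2.4.6, pandas 2.3.3, SciPy 1.17.1 and Matplotlib 3.10.9 were used.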

Additional observations from a re-analysis of the deposited data

How the results depend on the processing

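The number of regions depended on the lists' lengths. It was 3854, and 1672 to 5970 with 1 list left out (1672 without parental replicate 1, 5970 without Tet2 knockout replicate 2 and 5833 without wild type replicate 2), 10 when each list was shortened to its 2259 leading peaks, and 1668 under the replicate block, which asks for the rule within each number. The share at a gene end (64.9%) was 67.2% at −log10 q of at least 5, 60.1% with 200 bp summit windows, 10% in the equal-length lists (10 regions), 76.7% under the replicate block and with a peak in both parental lists, 61.4% within 500 bp, 68.6% within 2 kb, 58.8% at start sites alone, and 64.5 to 76.1% with 1 list left out. The share with a peak in both parental lists (43.3%) was 35.6% with summit windows, 90% in the equal-length lists and 39.4 to 45.5% with 1 list left out, and has no value under the block or without a parental list.

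Against common regions the odds ratio for gene ends was 9.53 to 17.1 with 1 list left out, and 3.42 to 8.27 against regions with a knockout but no parental peak. In the equal-length lists both turned round (0.866 and 0.471, Fisher's exact p = 1.0 each), with 10 regions left. Against regions with both control peaks it was 0.539 to 0.794 with 1 list left out, 0.792 under the replicate block (Fisher's exact p = 0.20), where the call was lost, and 1.18 (Fisher's exact p = 0.026) when the set alone was limited to both parental lists, a turn that comes with the one-sided limit, since 0.779 was found with both sides limited. The cause of the lost call under the block was not tested.

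The FLAG-TET2 minus wild type summit difference (122.5 bp) was 119 bp at the stricter threshold, 84.25 bp with summit windows, 156 bp under the block and in both parental lists, 110 bp with the nearest of several start sites and 114.5 to 153.75 bp with 1 list left out. The FLAG-TET2 minus parental difference (-75.25 bp) was -90.25, -60, -45.25, -72 and -78.5 to -39.5 bp under the same settings, with -39.5 bp without parental replicate 1. Neither changed direction in these settings, and the equal-length lists gave no value. The summit settings and the limit to both parental lists were chosen after seeing the data. Unknown depth limits every statement that a list lacks a peak, and with 2 libraries a group the exact permutation test cannot pass a threshold of 0.05.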

Other observations

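Chromosome X held few regions of the set, 14 of its 1303 merged regions (1.07%). The shares of the autosomes ran from 3.53% on chromosome 18 to 7.12% on chromosome 8 (326 of 4577), and chromosome Y had 0 of 29. Of the 1303 regions on X, 62 were common regions and 1 had both control peaks. The labels used here give no sex for the cells, and the part of copy number in these counts was not tested.

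Small RNA genes lay under few regions of the set, but for 3 of the 4 kinds the share was above that of all merged regions. A miRNA gene was overlapped by 20 regions of the set (0.519%, against 0.131% of all merged regions), a snoRNA gene by 12 (0.311%, against 0.0907%) and a snRNA gene by 6 (0.156%, against 0.0517%). A tRNA gene was overlapped by 5 (0.130%, against 0.277% of all merged regions). Regions with both control peaks had 0.929%, 0.483%, 0.557% and 2.01% for miRNA, snoRNA, snRNA and tRNA genes. These differences were not tested, and regions of the set are wider than merged regions in general (medians of 894 and 243 bp).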
